A study of Mus musculus with 24 samples.

Results

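The samples described here are 6 of 24 libraries of total RNA from the mouse embryonic stem (mES) cell line V6.5 with a degron on BRD2, a tag through which the protein can be removed by an auxin. They are the 3 libraries of mES cells and the 3 of embryoid bodies on day 2 (EBd2) treated with IAA, indole-3-acetic acid, which is that auxin. All groups, controls included, carried the degron and were first given 1 µg/ml doxycycline (Dox) for 18 h. The IAA groups then received 500 µM IAA for 24 h, and the Dox groups, with 3 libraries each of mES and EBd2, did not. The mES cells grew in 2i medium with 15% FBS, LIF, 3 µM of the GSK3 inhibitor CHIR99021 and 1 µM of the MEK inhibitor PD0325901, and embryoid bodies, which are floating aggregates of differentiating cells, formed in a second medium, which lacked LIF. Whether that medium held the inhibitors, when in the EB culture IAA was added and whether the line is 1 clone are not in the labels. Stage, medium and culture form changed together and cannot be told apart. The comparison asked which RNA changes of the exit from naive pluripotency still occurred with IAA. It covered the 21710 of 35742 genes whose mean over the 6 libraries was at least 1 normalized count. The same stages with Dox alone, 6 other libraries with 22380 genes tested, served as the control.

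BRD2 is a member of the BET family of proteins, which bind acetylated histones at promoters and enhancers and take part in transcription by RNA polymerase II. Naive stem cells resemble the preimplantation epiblast. They are held there by transcription factors such as NANOG, ESRRB, KLF4 and TFCP2L1, by LIF acting through STAT3, and in 2i medium by blocking ERK signalling and sparing beta-catenin. When these inputs are withdrawn the naive factors are switched off, OCT4 is kept, and a formative programme of the postimplantation epiblast, with FGF5, OTX2 and the de novo DNA methyltransferases, comes up before cells choose a germ layer.

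Levels below are size-factor-normalized counts, given for replicates 1, 2 and 3 in that order, or as mean ± SD (n = 3). A change is the log2 fold change ± SE of EBd2 over mES, fitted with limma on log2 of the value plus 1, a scale that understates the change of low genes. "Rose", "fell" and "called" mean an adjusted p below 0.05. The difference is the change with IAA minus the change with Dox alone, tested as an interaction over the 12 libraries. Gene positions are from GENCODE M21 on mm10.

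Library depth was 11102416 to 14317039 recovered reads in mES with IAA and 11648384 to 15732767 in EBd2 with IAA. The Dox libraries held 11147216 to 11890640 (mES) and 11005217 to 13992700 (EBd2). No libraries of a group agreed within sampling noise (pairwise chi-square divided by its degrees of freedom, 1.16 to 1.44 in mES with IAA and 1.90 to 1.99 in EBd2 with IAA). In EBd2 with Dox, replicate 3 stood apart from replicates 1 and 2 (4.09 and 3.44, against 1.27 between those). The mitochondrial share was 1.02% to 1.08% in mES with IAA and 0.959% to 1.03% in EBd2 with IAA, and 1.05% to 1.07% and 0.831% to 0.892% with Dox. The labels do not say that the libraries of a group came from separate cultures, so p-values measure only the spread between these samples.

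Brd2 itself (ENSMUSG00000024335, chromosome 17, 34112023 to 34122634, - strand) was at 8441, 8034 and 8255 in mES with IAA and at 12278, 11149 and 11463 in EBd2 with IAA. With Dox alone it was at 4413, 4472 and 4606 and 7550.4, 7595 and 7084. The change was 0.50 ± 0.03 with IAA (adjusted p = 6.77e-09) and 0.72 ± 0.04 with Dox, and the difference was -0.22 ± 0.05 (adjusted p = 0.00303). All 6 IAA libraries were above all 6 Dox libraries, and in each treatment EBd2 was above mES. Since the degron acts on the protein, these RNA levels are no measure of its loss.

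The promoters of 4 genes described below are shown, 2 of naive genes that fell and 2 of formative genes that rose. Each is the 250 bases before the start site in RefSeq (GRCm38.p6), written 5′ to 3′ on the gene's strand. Capitals mark a match, on either strand, to the STAT-type motif TTCNNNGAA or to the octamer ATGCAAAT, which do not overlap here. They are Zfp42 (chr8:43307010-43307259, - strand), Esrrb (chr12:86360867-86361116, + strand, 1 of its 2 entries in the table), Fgf5 (chr5:98253934-98254183, + strand) and Dnmt3b (chr2:153649199-153649448, + strand).
Zfp42: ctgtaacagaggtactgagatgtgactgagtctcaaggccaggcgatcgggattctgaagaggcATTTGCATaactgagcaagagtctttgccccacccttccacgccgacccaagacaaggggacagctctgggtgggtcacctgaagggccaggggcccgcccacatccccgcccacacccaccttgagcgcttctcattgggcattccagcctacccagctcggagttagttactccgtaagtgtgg
Esrrb: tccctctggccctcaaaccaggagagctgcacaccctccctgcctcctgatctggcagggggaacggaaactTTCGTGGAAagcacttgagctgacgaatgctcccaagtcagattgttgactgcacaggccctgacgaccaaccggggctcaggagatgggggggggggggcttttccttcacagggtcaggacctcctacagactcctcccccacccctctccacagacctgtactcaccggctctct
Fgf5: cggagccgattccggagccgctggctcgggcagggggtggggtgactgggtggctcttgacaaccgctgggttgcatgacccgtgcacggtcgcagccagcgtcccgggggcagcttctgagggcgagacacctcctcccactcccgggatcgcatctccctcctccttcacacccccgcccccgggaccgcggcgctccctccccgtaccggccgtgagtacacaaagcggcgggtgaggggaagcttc
Dnmt3b: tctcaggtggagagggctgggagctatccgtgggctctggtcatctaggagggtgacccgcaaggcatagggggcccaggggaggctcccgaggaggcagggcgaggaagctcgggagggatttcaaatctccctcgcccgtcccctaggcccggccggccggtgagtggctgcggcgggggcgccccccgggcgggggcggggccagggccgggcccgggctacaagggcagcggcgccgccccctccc
Zfp42 holds the octamer and Esrrb the STAT-type motif, while neither is in the Fgf5 or Dnmt3b window. Of 32817 mouse promoter windows of this length, 7.01% hold TTCNNNGAA and 1.60% ATGCAAAT. Promoters matched for 10 naive genes, of which 1 held each motif, and for 10 formative genes, also with 1 for each. A gene counted when any of its windows held the motif, so these counts are not on the scale of the shares per window. A match is a description of these letters and not a binding site.

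With IAA the exit from mES to EBd2 changed most of the transcriptome. Of 21710 genes tested, 14908 (68.7%) were called, 7882 up (36.3%) and 7026 down (32.4%), and 4340 (20.0%) rose and 3290 (15.2%) fell by at least 2-fold. With Dox alone 14812 of 22380 genes (66.2%) were called, 8016 up (35.8%) and 6796 down (30.4%), with 4467 (20.0%) up and 3092 (13.8%) down by at least 2-fold. The median change over all genes was 0.04 with IAA and 0.07 with Dox on the log2 scale. The libraries of mES and EBd2 did not overlap for 70.9% of the genes with IAA and 69.4% with Dox.

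Most of what the Dox cells did was also done with IAA. Of the 7559 genes that changed at least 2-fold with Dox, 6137 (81.2%) were called in the same direction with IAA and 5527 (73.1%) also moved at least 2-fold. Only 17 (0.225%) were called in the opposite direction, 787 (10.4%) were tested and not called, and 618 (8.18%) had a mean under 1 with IAA. Of the 787, 148 had a called difference, 86 among the genes that rose with Dox and 62 among those that fell. The difference was called for 20.0% of all genes, so the count of 148 is near that share. Read the other way, 6297 (82.5%) of the 7630 genes that changed at least 2-fold with IAA were called in the same direction with Dox, 20 in the opposite one, and 1089 (14.3%) were not called. The IAA and Dox libraries are separate, so these shares are not set by shared samples.

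**Figure D1:**
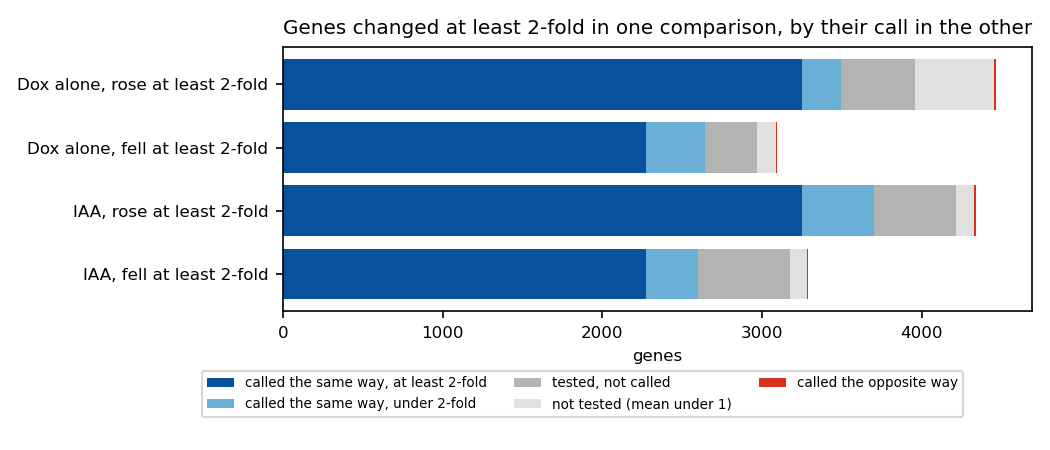
Genes that changed at least 2-fold between mES and EBd2 in one treatment, split by their call in the other; the x axis counts genes. Of the 4467 genes that rose with Dox, 3252 also rose at least 2-fold with IAA, and of the 3092 that fell, 2275 also fell at least 2-fold.

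Across the 21011 genes tested in both treatments, the 2 changes had a Pearson r of 0.904, which describes genes and not independent replicates. Of 12176 genes called in both, 11936 (98.0%) moved in the same direction. The size was alike, with a median absolute log2 change of 0.67 with IAA and 0.65 with Dox. The difference itself was called for 4416 of 22117 genes (20.0%), 2422 upward (11.0%) and 1994 downward (9.02%), so 54.9% of the calls were upward. With TMM scaling that share was 65.7%. A difference of at least 2-fold was called upward for 627 genes (2.83%) and downward for 488 (2.21%).

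**Figure D2:**
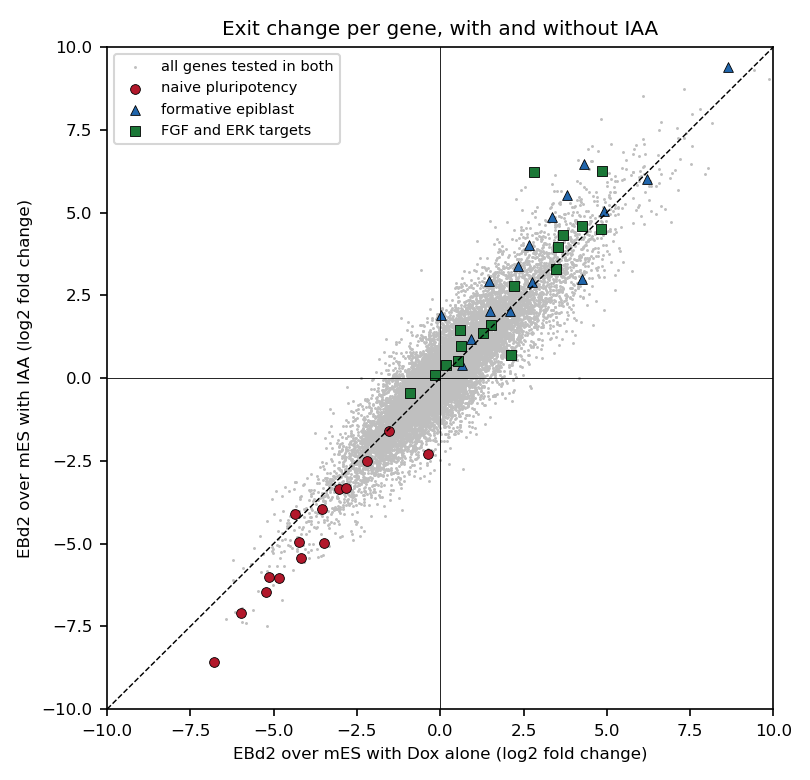
Log2 fold change of EBd2 over mES with Dox alone (x axis) against that with IAA (y axis) for each gene tested in both; the dashed line marks equal changes. Naive genes (red circles) lie low and left and mostly under the line, and formative genes (blue triangles) lie high and right and mostly above it.

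The naive pluripotency genes were shut down with IAA. All 15 of the list fell with IAA, each by at least 2-fold, against 15.2% of all genes, with a median change of -4.94 (all genes 0.04). With Dox all 15 fell, 14 by at least 2-fold, with a median of -4.19. The difference was called downward for 11 of 15 and upward for 0, against 9.02% and 11.0% of all genes, and 1 was upward when EBd2 Dox 2 was left out. In bulk RNA, fewer cells of a type and less RNA per cell cannot be told apart.

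Esrrb, a nuclear receptor that sustains self-renewal (ENSMUSG00000021255, chromosome 12, 86361117 to 86521628, + strand), was at 9262, 9061 and 9433 in mES with IAA and at 149, 134 and 136 in EBd2 with IAA. With Dox it went from 8387, 8524 and 8757 to 306, 319 and 276. The stages were far apart in both treatments, and the 3 IAA EBd2 libraries lay below the 3 Dox ones. The change was -6.04 ± 0.05 with IAA (adjusted p = 4.52e-19) and -4.83 ± 0.05 with Dox, with a difference of -1.21 ± 0.07 (adjusted p = 5.7e-11).

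Nanog, the homeodomain factor of the naive epiblast (ENSMUSG00000012396, chromosome 6, 122707489 to 122714633, + strand), fell from 11476, 10994 and 10933 to 253, 234 and 289.7 with IAA. The Dox values were 9578, 9570.3 and 9646 in mES and 469.5, 532 and 575 in EBd2. Here too the IAA libraries started above the Dox libraries and ended below them, with changes of -5.43 ± 0.06 and -4.19 ± 0.06 and a difference of -1.23 ± 0.09 (adjusted p = 1.84e-09). Tfcp2l1, a target of both LIF and Wnt signals, fell from 9166, 9107 and 9379.5 to 142, 145 and 141 with IAA (-6.00; adjusted p = 7.45e-20) and from 6535, 6686 and 7221 to 219, 176 and 182 with Dox (-5.15). Its difference was -0.86 ± 0.08 (adjusted p = 1.64e-07).

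Prdm14, a repressor of FGF signalling and of de novo methylation (ENSMUSG00000042414, chromosome 1, 13113457 to 13127163, - strand), went from 661, 668 and 700.1 to 0, 0.902 and 1.99 with IAA, and from 566, 615 and 585 to 7.55, 2.84 and 3.59 with Dox. Klf4 went from 4317, 4222 and 4339 to 51.2, 22.6 and 23.9 with IAA (-7.10 ± 0.21; adjusted p = 3.8e-13) and from 2899.8, 3077 and 3135 to 52.0, 52.0 and 39.5 with Dox (-5.97 ± 0.09). Both genes were among the 10 falls with IAA named by size, and both differences were called (-1.78 and -1.13; adjusted p = 0.00326 and 0.00248). Zfp42 (REX1), whose promoter is printed above, went from 10278, 9994 and 10523 to 617, 681 and 689 with IAA and from 8249, 8373 and 8567 to 739.5, 691 and 699 with Dox. The EBd2 levels of the treatments were close, and the difference was -0.39 ± 0.06 (adjusted p = 4.43e-05), a call that was lost in the fit of all 24 libraries.

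Dppa3 (STELLA), a maternal factor that guards against DNA methylation (ENSMUSG00000046323, chromosome 6, 122626410 to 122630272, + strand), was the naive gene whose fall differed most. It went from 101, 106 and 90.3 to 20.3, 16.2 and 22.5 with IAA, but with Dox from 82.4, 86.0 and 98.5 to 74.6, 64.3 and 67.5. The EBd2 libraries of the treatments did not overlap. The change was -2.28 ± 0.16 with IAA (adjusted p = 1.09e-08) and -0.37 ± 0.12 with Dox (adjusted p = 0.02), with a difference of -1.91 ± 0.21 (adjusted p = 6.36e-07). Fbxo15 fell by more with IAA as well (-4.97 against -3.49, difference -1.48 ± 0.08), as did Tcl1 (-6.47 against -5.24, a difference lost in the fit of all 24 libraries). For 4 naive genes the difference did not pass the test, namely Klf2 (-0.33), Tbx3 (-0.69), Nr0b1 (-0.06) and Nr5a2 (0.25). Their adjusted p-values were 0.177, 0.209, 0.817 and 0.203. Without EBd2 Dox 3, in which Tbx3 and Nr0b1 were lowest, the differences of Klf2, Tbx3 and Nr0b1 were called.

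The LIF pathway, which keeps mES cells undifferentiated, had mostly falling members with IAA. Of 10 members, 9 fell and 1 rose with IAA, against 32.4% and 36.3% of all genes. With IAA 8 fell by at least 2-fold, against 15.2%, with a median change of -2.16. With Dox 9 fell and 1 rose, with a median of -1.82. The difference was called downward for 3 of 10, against 9.02% of all genes, and upward for 1, against 11.0%. The receptor gene Lifr went from 777, 696 and 690.3 to 152, 133 and 154 with IAA (-2.29; adjusted p = 1e-12), and its partner Il6st from 1453, 1405 and 1461 to 309.9, 292 and 307 (-2.24; adjusted p = 8.11e-15). Stat3, the transcription factor that the receptor activates, fell from 1458, 1440.1 and 1469 to 255, 239 and 235 with IAA and from 1251, 1304 and 1245 to 433, 412 and 373 with Dox. The IAA EBd2 libraries were below the Dox ones, with changes of -2.58 ± 0.05 and -1.64 ± 0.06 and a difference of -0.94 ± 0.08 (adjusted p = 1.13e-08).

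Socs3, the feedback inhibitor that STAT3 induces (ENSMUSG00000053113, chromosome 11, 117966079 to 117970047, - strand), dropped from 1509, 1363 and 1493 to 31.8, 33.4 and 31.8 with IAA (-5.45 ± 0.07; adjusted p = 9e-17). With Dox it dropped from 1308, 1265 and 1329 to 49.5, 37.8 and 50.2 (-4.81 ± 0.10), and the difference was -0.64 ± 0.12 (adjusted p = 0.000709). Ptpn11, which codes for the phosphatase SHP2, was the member that rose (0.31 with IAA, adjusted p = 9.02e-07, and 0.43 with Dox). The kinase gene Jak1 fell less with IAA than with Dox (-0.34 against -0.66, difference 0.32 ± 0.07, adjusted p = 0.00256). Pim3 fell by -1.84 ± 0.04 with IAA and -1.99 ± 0.05 with Dox, and its difference did not pass the test (0.15 ± 0.06, adjusted p = 0.117).

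The core pluripotency genes moved in both directions and by less. Pou5f1 (OCT4; ENSMUSG00000024406, chromosome 17, 35506018 to 35510772, + strand) was at 10254, 10038 and 9998 in mES and 8869, 9119 and 8439 in EBd2 with IAA, and at 9674, 9610.2 and 9836 and 9323, 9411 and 8517 with Dox. The IAA stages did not overlap, and the fall was small (-0.20 ± 0.03, adjusted p = 3.65e-05; Dox -0.10 ± 0.04). Its difference did not pass the test (-0.10 ± 0.05, adjusted p = 0.181) but did without EBd2 Dox 3. Of the 13 core genes, 9 rose and 4 fell in each treatment, against 36.3% up and 32.4% down over all genes with IAA. The difference was called upward for 7 and downward for 1, Dppa5a, against 11.0% and 9.02% of all genes, and 3 were downward without EBd2 Dox 3.

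Sox2, the partner of OCT4, fell from 5724, 5422 and 5992 to 2499, 2427 and 2427 with IAA and further, from 6127, 5909.6 and 6008 to 1481, 1507 and 1622, with Dox. Every IAA EBd2 library was above every Dox one, with changes of -1.22 ± 0.04 and -1.97 ± 0.04 and a difference of 0.75 ± 0.06 (adjusted p = 2.6e-09). Lin28a, an inhibitor of let-7 processing, rose from 846, 853 and 824 to 6329, 6287 and 6228 with IAA and from 2074, 2078 and 2180.1 to 6990.3, 6754 and 6481 with Dox. The mES libraries with IAA were far below those with Dox, while in EBd2 they were only slightly below, giving 2.90 ± 0.03 against 1.67 ± 0.04 and a difference of 1.23 ± 0.05 (adjusted p = 1.77e-13). Utf1, a chromatin factor of pluripotent cells, was also lower in mES with IAA than with Dox, and its EBd2 levels overlapped, from 604, 647 and 661 to 4790.1, 4104 and 4317 with IAA against 1335, 1392 and 1422 to 4570.5, 4490.4 and 4675 with Dox (difference 1.06 ± 0.07, adjusted p = 2.7e-10).

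**Figure D3:**
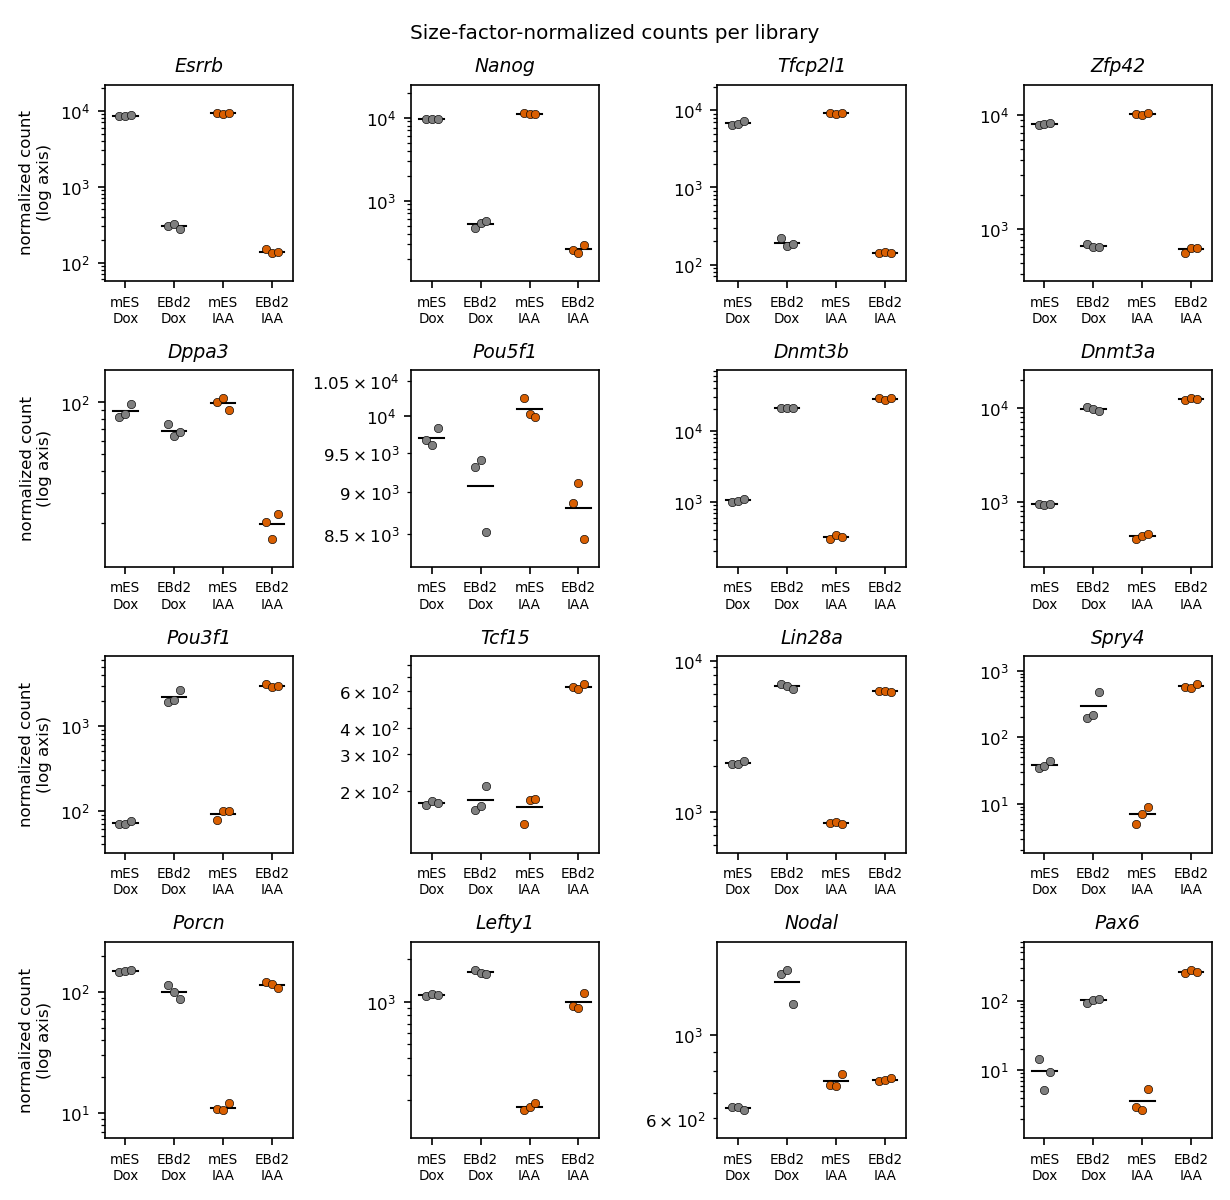
Normalized counts of 16 genes in each library (points, log axes) with the mean of each group (lines); grey, Dox alone; orange, IAA. Esrrb, Nanog, Tfcp2l1 and Zfp42 are low and Dnmt3b, Dnmt3a and Pou3f1 high in EBd2 with both treatments. The naive gene Dppa3 falls far with IAA and little with Dox. With IAA Tcf15 rises and Nodal stays level.

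The formative epiblast genes came up with IAA. All 16 of the list rose with IAA, 15 of them by at least 2-fold, against 20.0% of all genes, with a median change of 3.19. With Dox 15 rose, 13 by at least 2-fold, with a median of 2.71. The difference was called upward for 8 and downward for Fgf15 and Tcf7l1, against 11.0% and 9.02% of all genes. The Fgf15 call (-1.27, adjusted p = 0.0344) was lost without EBd2 Dox 3, without any EBd2 IAA library, without mES Dox 1 or 3, without mES IAA 1 and with edgeR.

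Fgf5, the growth factor that marks the postimplantation epiblast (ENSMUSG00000029337, chromosome 5, 98254184 to 98277030, + strand), was at 0 in all mES libraries. In EBd2 it was at 676, 650.4 and 679 with IAA and 357, 383 and 469 with Dox. Against a floor of 3 reads per library it was at least 256-fold higher in EBd2 with IAA (adjusted p = 8e-15) and at least 149-fold higher with Dox. The IAA EBd2 libraries lay above the Dox ones, but the difference of the changes did not pass the test (adjusted p = 0.0823; it passed in the fit of all 24 libraries and among genes with a mean of at least 10).

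The de novo methyltransferases rose steeply. Dnmt3b (ENSMUSG00000027478, chromosome 2, 153649450 to 153687730, + strand) went from 302, 339 and 319.9 to 28666, 27022 and 28666 with IAA and from 999, 1036 and 1106 to 20682, 21073 and 21290.2 with Dox. With IAA it started lower and ended higher in every library, with changes of 6.45 ± 0.04 (adjusted p = 7.45e-20) and 4.33 ± 0.04 and a difference of 2.13 ± 0.06 (adjusted p = 2.24e-16). Dnmt3a (ENSMUSG00000020661, chromosome 12, 3806007 to 3914443, + strand) had the same order, from 403, 431 and 454 to 12148, 12669 and 12445 with IAA and from 935, 929 and 952 to 10162, 9701 and 9238 with Dox. Its difference was 1.49 ± 0.06 (adjusted p = 1.77e-13).

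Among the transcription factors of the list, Pou3f1 (OCT6) rose from 77.2, 98.6 and 97.9 to 3129, 2929 and 2955 with IAA and from 68.8, 68.6 and 75.3 to 1908, 2023 and 2654 with Dox. Its changes were 5.03 ± 0.08 and 4.92 ± 0.10 with a difference of 0.12 ± 0.14 (adjusted p = 0.624). Otx2, which directs the first steps out of the naive state, gave 2.03 ± 0.06 with IAA (adjusted p = 1.97e-13) and 2.08 ± 0.11 with Dox, with a difference of -0.06 ± 0.13 (adjusted p = 0.827). The SOX1 relative Sox3 rose from 14.7, 9.69 and 15.8 to 676, 626 and 651 with IAA and from 27.2, 23.5 and 37.2 to 377, 390.3 and 476 with Dox (difference 1.73 ± 0.23, adjusted p = 7.73e-06). Zic2, a zinc finger factor of the epiblast, rose by 4.01 ± 0.06 and 2.66 ± 0.07 (difference 1.35 ± 0.10, adjusted p = 1.97e-09). The kinase gene Pim2 rose from 129, 115 and 145 to 8971, 8138 and 8249.5 with IAA (6.02 ± 0.07; adjusted p = 2.92e-17) and from 101, 111 and 107 to 7819, 8149 and 7952 with Dox (6.22 ± 0.05; difference -0.20 ± 0.09, adjusted p = 0.126).

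Tcf15, a bHLH factor of cells leaving the naive state (ENSMUSG00000068079, chromosome 2, 152143561 to 152149097, + strand), rose with IAA and not with Dox. It was at 139, 181 and 184 in mES and 629.6, 617 and 649.6 in EBd2 with IAA, and at 172, 179 and 176 and 162, 170.1 and 212 with Dox. The 3 EBd2 libraries with IAA stood above the other 9. The change was 1.92 ± 0.09 with IAA (adjusted p = 8.6e-11) and 0.04 ± 0.10 with Dox (adjusted p = 0.772), and the difference of 1.88 ± 0.14 was called (adjusted p = 2.91e-09).

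Genes of DNA methylation moved in both directions. Of 11 list members 6 rose and 5 fell in each treatment, against 36.3% and 32.4% of all genes with IAA. The difference was called upward for 4 and downward for 4, against 11.0% and 9.02% of all genes. Dnmt3l, the cofactor of the de novo enzymes, rose by 3.14 ± 0.06 with IAA and 2.08 ± 0.05 with Dox (difference 1.07 ± 0.09, adjusted p = 1.27e-08). The maintenance gene Dnmt1 fell from 7002, 7060.5 and 7112 to 4750.4, 4695 and 4696 with IAA (-0.58; Dox -0.36; difference -0.22, adjusted p = 0.00116). Zfp57, which protects imprints, fell from 6555, 6091 and 6559.7 to 910.3, 828 and 981 with IAA and from 4763, 4849.9 and 4929.8 to 1367, 1276 and 1266 with Dox, with a difference of -0.93 ± 0.07 (adjusted p = 2.85e-09). Tet2, a methylcytosine oxidase also on the naive list, fell by -3.32 ± 0.04 with IAA and -2.81 ± 0.05 with Dox.

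Targets of FGF and ERK signalling, which PD0325901 holds down in 2i, mostly rose with IAA. Of 17 members 14 rose and 1, Ier3, fell with IAA, against 36.3% and 32.4% of all genes, and 15 rose and 1 fell with Dox, against 35.8% and 30.4%, with medians of 1.62 and 2.13. The Ier3 call with IAA (adjusted p = 0.0189) was lost by DESeq2, in the fit of all 24 libraries and without EBd2 IAA 1 or 3 or mES IAA 1 or 3. Of the 17, the difference was called upward for 5 and downward for 1, Fos, against 11.0% and 9.02% of all genes, which became 8 upward without EBd2 Dox 3 and 0 downward without EBd2 IAA 2.

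The feedback inhibitor gene Spry4 (ENSMUSG00000024427, chromosome 18, 38586247 to 38601415, - strand) showed the widest difference of these. It was at 4.88, 7.05 and 9.03 in mES and 573, 558 and 634 in EBd2 with IAA, and at 34.4, 36.5 and 43.7 and 198, 215 and 477 with Dox. With IAA it started below and ended above every Dox library, and EBd2 Dox 3 was the highest of its group. The change was 6.24 ± 0.17 with IAA (adjusted p = 1.92e-13) and 2.81 ± 0.25 with Dox, with a difference of 3.43 ± 0.33 (adjusted p = 1.1e-07). Dusp6, an ERK phosphatase, went from 64.5, 68.7 and 76.0 to 1373, 1404 and 1462 with IAA (4.32 ± 0.07; adjusted p = 5.78e-16), and from 87.9, 99.9 and 89.2 to 894, 1049 and 1847 with Dox. EBd2 Dox 3 was again apart, above the IAA libraries. The Dusp6 difference (0.63 ± 0.22, adjusted p = 0.0434) was lost with edgeR, DESeq2, a constant of 0.5 and most omissions of 1 library. The ETS factor gene Etv4 rose from 15.6, 19.4 and 10.5 to 1217, 1192 and 1191 with IAA and from 39.0, 40.0 and 35.3 to 1226, 1209 and 955 with Dox (difference 1.40 ± 0.20, adjusted p = 1.91e-05). Egr1, an immediate early gene, rose by 4.50 with IAA (adjusted p = 4.6e-11) and 4.83 with Dox.

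Wnt targets and regulators moved in both directions. Of 13 tested with IAA 8 rose and 4 fell, and of 14 with Dox likewise 8 and 4, against 36.3% up and 32.4% down over all genes with IAA. Among the 14, differences were called downward for 4, Axin2, Lef1, Sp5 and Dkk1, and upward for 1, Porcn, against 9.02% and 11.0% of all genes. Porcn, an acyltransferase that adds a lipid to Wnt ligands (ENSMUSG00000031169, chromosome X, 8193848 to 8206525, - strand), had the largest upward difference of all named genes. It was at 10.7, 10.6 and 12 in mES with IAA and 122, 115 and 107 in EBd2 with IAA, and at 147, 148 and 152 and 114, 99.2 and 87.6 with Dox. Only the mES libraries with IAA were low, while the EBd2 libraries of the treatments overlapped. The change was upward with IAA (3.26 ± 0.16; adjusted p = 1.79e-10) and downward with Dox (-0.57 ± 0.11; adjusted p = 0.000426), with a difference of 3.83 ± 0.18 (adjusted p = 2.56e-12).

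Axin2, the feedback inhibitor of beta-catenin (ENSMUSG00000000142, chromosome 11, 108920349 to 108950783, + strand), fell with IAA from 261, 245 and 318 to 116, 103 and 107 (-1.32 ± 0.10; adjusted p = 1.58e-08). With Dox it was at 344, 334 and 377 and 357, 356 and 276, a change of -0.10 ± 0.09 that did not pass the test (adjusted p = 0.364), and the difference was -1.22 ± 0.14 (adjusted p = 1.77e-06). Sp5, another beta-catenin target, was at 3.91, 2.64 and 4.52 and 2.65, 4.51 and 1.99 with IAA (adjusted p = 0.609) and went from 3.62, 6.08 and 10.2 to 21.8, 35.0 and 18.7 with Dox. The Sp5 difference (-2.06 ± 0.55, adjusted p = 0.00984) was lost in the fit of all 24 libraries. Lef1 rose in both, from 5.86, 4.40 and 8.28 to 313, 251 and 309 with IAA and from 4.53, 4.34 and 7.43 to 511, 493 and 457 with Dox (difference -0.90 ± 0.28, adjusted p = 0.0251, lost by edgeR, DESeq2 and 6 omissions of 1 library), and 13.7% of its exonic bases lie in another gene. Cdx1, a homeobox gene that Wnt signals activate, fell from 324, 336 and 330.5 to 6.18, 4.51 and 3.98 with IAA (-5.83; adjusted p = 3.7e-13). Its change with Dox was -5.21 ± 0.34, and the difference did not pass the test (-0.62 ± 0.40, adjusted p = 0.313).

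The Nodal pathway, which pushes epiblast cells toward mesoderm and endoderm, had a called difference for 5 of 11 members, 2 upward and 3 downward, against 11.0% and 9.02% of all genes. Nodal itself (ENSMUSG00000037171, chromosome 10, 61417972 to 61425338, + strand) was at 736, 733 and 788 in mES and 753, 760.5 and 768 in EBd2 with IAA. With Dox it went from 642, 644 and 631 to 1447, 1485 and 1203. The 3 Dox EBd2 libraries stood above the other 9, and EBd2 Dox 3 was the lowest of them. The change was 0.02 ± 0.04 with IAA (adjusted p = 0.751) and 1.10 ± 0.07 with Dox (adjusted p = 1.09e-08), with a difference of -1.08 ± 0.08 (adjusted p = 5.09e-09).

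Gdf3, a TGF-beta ligand that acts with Nodal (ENSMUSG00000030117, chromosome 6, 122605403 to 122610087, - strand), moved in opposite directions. It fell with IAA from 1063, 1070.2 and 1042 to 568, 592 and 532 (-0.91 ± 0.05; adjusted p = 2.72e-10) and rose with Dox from 1235, 1317 and 1281 to 1726, 1689.9 and 1531 (0.37 ± 0.05; adjusted p = 2.52e-05), with a difference of -1.27 ± 0.07 (adjusted p = 2.41e-11). The coreceptor gene Tdgf1 fell from 10709, 10611 and 10677 to 7188, 7441 and 7111 with IAA (-0.56) and from 10564, 10527 and 10397 to 10052, 10158 and 9723 with Dox (-0.07; difference -0.48 ± 0.04, adjusted p = 9.63e-09). The antagonist gene Lefty1 rose from 169, 179 and 191 to 931, 898 and 1159 with IAA and from 1095, 1138 and 1122 to 1688, 1605 and 1582 with Dox. All IAA mES libraries were far below the Dox mES libraries, and the difference was 1.92 ± 0.10 (adjusted p = 7.12e-12). Its close paralog Lefty2, with which it can share reads, fell by -3.65 ± 0.08 with IAA (adjusted p = 1.78e-14) and -3.78 ± 0.04 with Dox, with a difference of 0.13 ± 0.10 (adjusted p = 0.39). Skil, a nuclear brake on SMAD signalling, rose from 628, 627 and 635 to 2957, 2904 and 2986 with IAA (2.22 ± 0.03; Dox 1.66 ± 0.06). In all, of 11 members tested in each, 4 rose and 4 fell with IAA, near the 36.3% and 32.4% of all genes. With Dox 6 rose and 4 fell.

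Early germ layer genes rose in part. Of 12 primitive streak genes 7 rose and 2 fell with IAA, against 36.3% and 32.4% of all genes, and 9 rose and 1 fell with Dox. With all 24 libraries in the fit, T, Mixl1 and Evx1 lost their call and 4 of 12 rises were left, near the share over all genes. Wnt8a, a Wnt ligand of the early streak, had 1 read over the 3 mES IAA libraries and was at 97.1, 81.2 and 112 in EBd2 with IAA. Its ratio was 343 with IAA (95% counting interval 61.2 to 1.36e+04) and 336 with Dox (92.7 to 2779), from 0, 0.869 and 0.929 to 211, 198 and 196. Wnt3 went from 0.977, 0.881 and 0.753 to 45.9, 43.3 and 53.7 with IAA (56.1, 18.9 to 275) and from 4.53, 0 and 0.929 to 108, 117 and 142 with Dox. For both Wnt genes the IAA EBd2 libraries were below the Dox ones, yet the difference did not pass the test (adjusted p = 0.274 and 0.207).

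Nkx1-2, a factor of the posterior streak (ENSMUSG00000048528, chromosome 7, 132594878 to 132599637, - strand), was the one streak gene with a called difference. It fell with IAA from 27.4, 18.5 and 20.3 to 1.77, 1.80 and 3.98 (-2.75 ± 0.34; adjusted p = 4.85e-06) and rose with Dox from 18.1, 20.8 and 24.2 to 31.9, 29.3 and 41.6 (0.67 ± 0.22; adjusted p = 0.0146), with a difference of -3.42 ± 0.41 (adjusted p = 2.32e-06). Other genes cover 16.6% of its exonic bases, and the strandedness of the counts is not given in the sources used here. The organizer gene Gsc fell from 49.8, 65.2 and 62.5 to 1.77, 4.51 and 1.33 with IAA (-4.19; adjusted p = 2.95e-08). Its change with Dox was -3.88 ± 0.44, and the difference did not pass the test (-0.31 ± 0.57, adjusted p = 0.771).

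Of 16 neuroectoderm genes 6 rose and 6 fell with IAA, near the 36.3% and 32.4% of all genes, and of 15 tested with Dox 6 rose and 5 fell. Differences were called upward for 6 of 15 and downward for 1, against 11.0% and 9.02% of all genes. Pax6, a regulator of eye and forebrain (ENSMUSG00000027168, chromosome 2, 105668900 to 105697364, + strand), rose from 2.93, 2.64 and 5.27 to 249.9, 278 and 256 with IAA and from 14.5, 5.21 and 9.29 to 93.1, 103 and 106 with Dox. Every EBd2 library with IAA was above every one with Dox, with changes of 5.87 ± 0.21 (adjusted p = 4.74e-12) and 3.35 ± 0.28 and a difference of 2.52 ± 0.37 (adjusted p = 3.2e-05). Gbx2, a homeobox gene also known from LIF-treated stem cells, rose with IAA from 34.2, 30.8 and 36.1 to 146, 124 and 121 (1.92 ± 0.13; adjusted p = 5.28e-09). With Dox it was at 35.3, 26.9 and 41.8 and 47.0, 46.3 and 35.2 (adjusted p = 0.201), and the difference was 1.61 ± 0.24 (adjusted p = 4.52e-05). Tubb3, a neuronal tubulin, fell by less with IAA (-0.63 against -1.64, difference 1.01 ± 0.08, adjusted p = 7.24e-09), as did the intermediate filament gene Nes (-0.22 against -0.74, difference 0.52 ± 0.06, adjusted p = 1.29e-06).

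**Figure D4:**
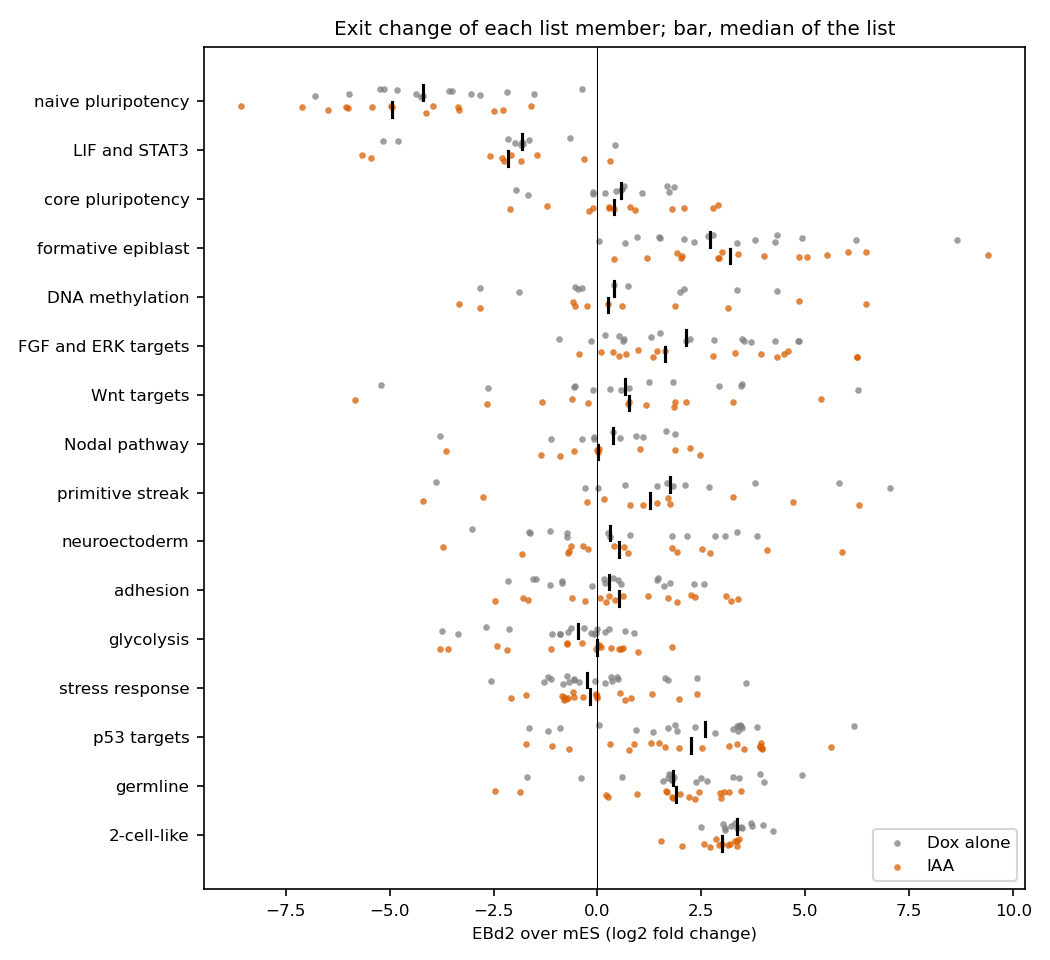
Log2 fold change of EBd2 over mES (x axis) for each tested member of 16 gene lists; grey points, Dox alone; orange points, IAA; black bars, the median of the list. The medians of the naive list are -4.94 with IAA and -4.19 with Dox, and those of the formative list 3.19 and 2.71.

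Markers of other lineages were checked as a group. Of 11 primitive endoderm genes 7 rose and 1 fell with IAA (4 rose by DESeq2), against 36.3% and 32.4% of all genes, with Lama1, a basement membrane laminin, falling from 1728, 1636 and 1683 to 98.0, 86.6 and 90.8 and Col4a1 rising by 1.84. Dab2 rose from 7.82, 1.76 and 3.76 to 93.6, 70.4 and 75.6 with IAA (4.04 ± 0.34). Among the defining members Gata6 was at 6.18, 2.71 and 2.65 and Sox17 at 7.95, 5.41 and 7.29 in EBd2 with IAA. Of 8 trophoblast genes 4 rose and 2 fell with IAA, against 36.3% and 32.4% of all genes. Tfap2c, shared with naive cells and the germline, fell from 879, 877 and 900.3 to 26.5, 30.7 and 31.2, and Plet1 fell by -2.72. Krt18 rose from 81.1, 91.6 and 66.2 to 191, 204 and 203 with IAA. Over the mES and EBd2 libraries with IAA, Hand1 had 2 and 79 reads and Gata3 had 3 and 15. The keratin gene Krt8 was at 313, 292 and 266 and 264, 297 and 266 with IAA, while with Dox it fell from 387, 374 and 392 to 165, 157 and 194 (difference 1.09 ± 0.12, adjusted p = 4.79e-07). Of 6 tested fibroblast genes 5 rose and 1 fell with IAA, against 36.3% and 32.4% of all genes. Thy1 rose from 19.5, 24.7 and 12.8 to 75.9, 83.9 and 73.6. Dcn, at 0 in mES with IAA, reached 15.0, 9.92 and 7.29. Col1a2 had 2 reads over the mES IAA libraries and 39 over the EBd2 ones. Pdgfrb fell by -2.05 with IAA, and Lum and Postn were at 0 in all 6 IAA libraries. The summed level of the fibroblast list was 9.78 to 12.2 CPM in mES with IAA and 12.3 to 13.9 CPM in EBd2 with IAA and 19.6 to 24.6 CPM in EBd2 with Dox. The primitive endoderm list summed to 177 to 183 CPM in mES with IAA and 77.7 to 83.0 CPM in EBd2 with IAA, and the trophoblast list to 129.8 to 132 and 54.3 to 59.1 CPM. In EBd2 with Dox the primitive endoderm sum was 58.2 to 64.4 CPM and the trophoblast sum 43.8 to 50.6 CPM, both lower than with IAA. The part of such cells in the other results was not tested.

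Several adhesion genes of the epithelial epiblast rose more with IAA than with Dox. Of 18 members 12 rose and 5 fell with IAA, against 36.3% and 32.4% of all genes, and 11 rose and 7 fell with Dox. The difference was called upward for 9 and downward for 4, against 11.0% and 9.02% of all genes. Epcam, a surface adhesion protein (ENSMUSG00000045394, chromosome 17, 87635979 to 87651129, + strand), went from 445, 469 and 419 to 3987, 4168 and 4126 with IAA and from 958, 961 and 847 to 3133, 3137 and 3057 with Dox. It started lower and ended higher with IAA in every library, giving 3.20 ± 0.04 (adjusted p = 1.54e-16) against 1.76 ± 0.05 and a difference of 1.45 ± 0.07 (adjusted p = 2.38e-12). The tight junction genes Cldn6 (difference 1.48 ± 0.09, adjusted p = 1.4e-10) and Cldn7 (1.12 ± 0.11) and P-cadherin, Cdh3 (1.41 ± 0.11), rose more with IAA as well. Vim, an intermediate filament of mesenchymal cells, went from 1190.0, 1159 and 1169 to 1355, 1444 and 1281 with IAA (0.21 ± 0.04; lost in the fit of all 24 libraries) and fell from 1661, 1704 and 1698 to 921, 967 and 906 with Dox (-0.86 ± 0.04; difference 1.07 ± 0.06, adjusted p = 5.59e-11). Fn1, the matrix protein fibronectin, fell in both (-2.47 with IAA, adjusted p = 3.31e-16, and -2.15 with Dox).

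Of 18 glycolysis genes 7 rose and 8 fell with IAA, against 36.3% and 32.4% of all genes, while 4 rose and 12 fell with Dox. The difference was called upward for 10, against 11.0% of all genes, and downward for 2, Slc2a3, lost in the fit of all 24 libraries, and Hk1, lost there and with TMM, edgeR and DESeq2. Slc2a1, the basal glucose transporter, rose from 1060.0, 1071 and 1168 to 3648, 3692 and 4095 with IAA and from 1262, 1197 and 1174 to 1767, 1731 and 2279 with Dox (difference 1.13 ± 0.10, adjusted p = 5.17e-08). Pgk1, a glycolytic kinase, was at 6556, 6697 and 7069 and 6488, 6657 and 6749 with IAA (adjusted p = 0.411) but fell from 6785, 6362 and 6453 to 4103, 4219 and 4368 with Dox (difference 0.60 ± 0.05, adjusted p = 1.37e-08). Pdk1, which diverts pyruvate from the mitochondrion, rose with IAA (0.61) and fell with Dox (-0.33; difference 0.94 ± 0.08, adjusted p = 1.26e-08). The largest falls were shared, with Pfkp at -3.79 ± 0.07 and -3.73 ± 0.04 and Hk1 at -3.61 ± 0.06 and -3.36 ± 0.06 for IAA and Dox.

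Genes of the integrated stress response moved in both directions. Of 20 members 6 rose and 10 fell with IAA, against 36.3% and 32.4% of all genes, and 7 rose and 10 fell with Dox. The difference was called upward for 5 and downward for 6, against 11.0% and 9.02% of all genes. Ddit4, an inhibitor of mTORC1 (ENSMUSG00000020108, chromosome 10, 59949669 to 59951834, - strand), went from 304, 382 and 349 to 1272, 1423 and 1349.6 with IAA and from 108, 127 and 107 to 1356, 1295 and 1451 with Dox. The EBd2 levels overlapped and the mES levels did not, with changes of 1.97 ± 0.07 (adjusted p = 4.49e-12) and 3.58 ± 0.08 and a difference of -1.61 ± 0.11 (adjusted p = 6.09e-10). The regulator gene Atf4 was at 4353, 4489 and 4298 and 4395, 4199 and 4139.7 with IAA (adjusted p = 0.216) and rose from 2593, 2753 and 2699.5 to 3823, 3795 and 3492 with Dox (difference -0.51 ± 0.05, adjusted p = 4.9e-07). Asns, asparagine synthetase, fell in both, from 11122, 10825 and 10858 to 2595, 2502 and 2618 with IAA (-2.09) and by -2.55 with Dox.

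Target genes of p53 rose with IAA as with Dox. Of 20 members 17 rose and 3 fell with IAA, against 36.3% and 32.4% of all genes, and 16 rose and 3 fell with Dox. The list medians were 2.24 and 2.59, or 1.80 and 2.14 with Fas, at 0 in mES, set to its lower bound. Plk2, a kinase of the p53 response, rose from 46.9, 44.9 and 40.6 to 2269, 2382 and 1970.1 with IAA (5.61; adjusted p = 1.7e-16) and from 36.2, 35.6 and 41.8 to 3115, 2979 and 2298 with Dox (6.16). Ccng1, cyclin G1, rose from 646, 644 and 709 to 10551, 10718 and 9324 with IAA and from 1019, 1046 and 1037 to 11676, 11794 and 10642 with Dox (difference 0.48 ± 0.07, adjusted p = 3.66e-05, lost in the fit of all 24 libraries). The cell death gene Pmaip1 (NOXA) reached 2642, 2808 and 2648 with IAA and 2737, 2716 and 2576 with Dox, from 172, 188 and 178 and 277, 231 and 239.8. Zmat3, an RNA-binding target, rose less with IAA (1.28 ± 0.05 against 1.92 ± 0.05, difference -0.64 ± 0.08, adjusted p = 2.15e-06). Differences of the list were called upward for 5 and downward for 5, each 3 in the fit of all 24 libraries. Over all genes the shares were 11.0% and 9.02%.

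Germline genes, many of them kept silent by promoter methylation in somatic cells, mostly rose. Of 18 members 15 rose and 2 fell with IAA, against 36.3% and 32.4% of all genes, and 16 rose and 2 fell with Dox. Differences were called upward for 1, Piwil2, and downward for 6, against 11.0% and 9.02% of all genes. Taf7l, a germ cell variant of a TFIID subunit, rose from 15.6, 10.6 and 12.8 to 107, 128 and 107 with IAA and from 10.9, 13.0 and 7.43 to 367, 366 and 286 with Dox. Dox EBd2 libraries were all higher, and the difference was -1.87 ± 0.27 (adjusted p = 2.51e-05). Dazl, an RNA-binding protein of germ cells, fell from 355, 388 and 394 to 90.1, 118 and 102 with IAA (-1.87 ± 0.09; adjusted p = 1.92e-10) and from 159, 174 and 168 to 123, 139 and 121 with Dox (-0.39 ± 0.09; difference -1.48 ± 0.13, adjusted p = 5.82e-08). Hormad1, a protein of meiotic chromosome axes, was at 63.5, 74.0 and 76.8 and 80.4, 84.8 and 80.9 with IAA (adjusted p = 0.145) and rose from 67.9, 46.0 and 62.3 to 235, 233 and 148 with Dox (difference -1.57 ± 0.23, adjusted p = 2.63e-05).

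Genes of the 2-cell-like state, a rare state of mES cultures, rose in both treatments. All 13 members rose with IAA and with Dox, against 36.3% and 35.8% of all genes, with medians of 2.98 and 3.36, or 2.93 with IAA when Tdpoz4, at 0 in mES with IAA, was set to its lower bound. Zscan4d went from 12.7, 9.69 and 15.1 to 82.1, 103 and 72.9 with IAA and from 14.5, 7.82 and 12.1 to 138, 162 and 171 with Dox. The Zscan4 and Usp17l genes are near-identical copies that can share reads, so their single values are uncertain. The Zscan4d difference (-1.0, adjusted p = 0.0222) was lost without EBd2 Dox 2, EBd2 IAA 1 or 3, mES Dox 2 or mES IAA 3.

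Genes that act with BET proteins at the pause step of RNA polymerase II moved in both directions. Of 19 members 8 rose and 9 fell with IAA, against 36.3% and 32.4% of all genes, while 0 rose and 2 fell by at least 2-fold, against 20.0% and 15.2%. With Dox 8 rose and 7 fell, and the difference was called downward for 7, against 9.02% of all genes, and upward for 1, Ell2, which became 3 with TMM scaling. Aff1, a scaffold of the super elongation complex, fell from 1902, 1903 and 2002 to 360.3, 312 and 401 with IAA (-2.44 ± 0.07; adjusted p = 3.3e-13) and from 1848, 1904 and 2007 to 667, 663 and 665 with Dox (-1.53 ± 0.04; difference -0.91 ± 0.09, adjusted p = 1.26e-07). Hexim1, an inhibitor of P-TEFb, rose from 1385, 1238 and 1329 to 2227, 2237 and 2178 with IAA (0.75) and from 664, 660.2 and 680.2 to 1404, 1343 and 1334 with Dox (1.02; difference -0.27, adjusted p = 0.00234). Larp7 of the 7SK complex rose by 0.90 and 1.25. Brd3 gave 0.05 ± 0.04 with IAA (adjusted p = 0.348) and 0.12 ± 0.05 with Dox (adjusted p = 0.038), with a difference of -0.07 ± 0.07 (adjusted p = 0.53). Targets of the aryl hydrocarbon receptor, checked since indoles can be its ligands, held 4 rises and 1 fall of 6 with IAA. With Dox they held 6 rises and 1 fall of 7, against 35.8% and 30.4% of all genes. Cyp1a1, its classical target, was at 4.88, 7.93 and 3.76 and 8.83, 14.4 and 6.63 with IAA and at 6.34, 4.34 and 0.929 and 15.1, 10.4 and 7.89 with Dox. Nqo1 was higher with IAA at both stages. It went from 1028, 1082 and 1004 to 1663, 1753 and 1570 with IAA. With Dox it went from 536, 542 and 552 to 1187, 1066 and 909. Tiparp rose by 1.56 with IAA and 0.96 with Dox, while Aldh3a1 fell by -3.44 and -1.97. Activity of the receptor was not tested.

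The largest rises with IAA outside these lists were also large with Dox. Gja1, the gap junction protein connexin 43 (ENSMUSG00000050953, chromosome 10, 56377330 to 56402513, + strand), went from 12.7, 10.6 and 21.8 to 5655, 5614 and 5546 with IAA and from 73.4, 85.1 and 82.7 to 5686, 5745 and 5178 with Dox. The EBd2 levels of the treatments overlapped, while the mES levels did not, giving 8.51 ± 0.17 (adjusted p = 6.55e-15) against 6.09 ± 0.06 and a difference of 2.42 ± 0.20 (adjusted p = 1.28e-08). The chemokine gene Cxcl12 had 3 reads over the mES IAA libraries and was at 805, 753 and 823 in EBd2 with IAA, against 1.81, 0.869 and 1.86 and 383, 377 and 416 with Dox. Its ratio with IAA was 927 (counting interval 317 to 4496), and its difference was 1.42 ± 0.27 (adjusted p = 0.000507, lost by edgeR and DESeq2). Vrtn, a gene known for vertebral number in pigs, had 1 read over the mES IAA libraries and reached 794, 791 and 809 with IAA and 1189.8, 1248 and 1147 with Dox. Enpp2, which makes lysophosphatidic acid, went from 0.977, 0 and 2.26 to 961, 913 and 1024 with IAA and reached 1228, 1158 and 1125 with Dox. Car4, a carbonic anhydrase, was at 0 in mES with IAA and at 253, 289 and 287 in EBd2 with IAA, at least 106-fold higher. Gadd45g, a stress and differentiation gene, rose from 0.977, 3.52 and 1.51 to 779, 746 and 629.7 with IAA and from 5.44, 13.0 and 5.58 to 2013, 1938 and 1014 with Dox, where EBd2 Dox 3 was the lowest. The others of the 10 were Gramd3, Tmem54 and Grm6. Grm6 was at 0 in mES with either treatment and at least 79.8-fold higher in EBd2 with IAA, and 11.0% of its exonic bases lie in another gene.

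The largest falls besides Prdm14, Klf4 and Tcl1 were those of Lrrc31, Gabrp, Hoxc12, Jam2, Spic, Crxos and Hal. Jam2, a junctional adhesion molecule (ENSMUSG00000053062, chromosome 16, 84774123 to 84825928, + strand), went from 4145, 4269 and 4392 to 36.2, 24.4 and 33.8 with IAA and from 3189.8, 3217 and 3309 to 46.1, 46.3 and 41.6 with Dox, with a difference of -0.91 ± 0.13 (adjusted p = 3.23e-05). Gabrp, a GABA-A receptor subunit, fell from 897, 958 and 909 to 6.18, 7.22 and 1.99 with IAA (-7.36 ± 0.27; adjusted p = 5.55e-12) and by -5.95 ± 0.24 with Dox. Lrrc31 fell from 347, 344 and 357 to 1.77, 0.902 and 0.663 with IAA and from 358, 392 and 390.3 to 5.03, 3.78 and 9.33 with Dox, and 11.7% of its exonic bases lie in another gene. Hal, which breaks down histidine, fell from 245, 233 and 255 to 3.53, 1.80 and 0 with IAA and from 255, 254 and 220.2 to 7.55, 8.51 and 7.89 with Dox. The differences of Gabrp (-1.41), Lrrc31 (-1.58) and Hal (-1.95) were called (adjusted p = 0.0137, 0.00146 and 0.00401) and were lost in the fit of all 24 libraries.

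All 8 genes named for the most upward change with IAA relative to Dox started lower in mES with IAA, in every library. Their EBd2 levels overlapped between treatments for Porcn, Arhgef5, Arap3 and Dtna and were higher with IAA for the others. Enpp3, an ectonucleotidase (ENSMUSG00000019989, chromosome 10, 24772406 to 24842823, - strand), was at 31.3, 30.8 and 30.9 in mES with IAA and 207, 219.8 and 208 in mES with Dox. In EBd2 it was at 1612, 1672 and 1604 with IAA and 1179, 1167 and 1110.3 with Dox, so it started lower and ended higher with IAA (difference 3.23 ± 0.08, adjusted p = 4.77e-17). Arhgef5 was at 2.93, 0 and 4.52 and 29.9, 19.1 and 27.9 in mES and at 144, 149.7 and 162 and 142, 152 and 162 in EBd2, for IAA and Dox, with overlapping EBd2 levels (difference 3.23 ± 0.53, adjusted p = 0.000126). Ramp3, a receptor activity modifying protein, was at 0.977, 1.76 and 0.753 and 8.15, 13.9 and 18.6 in mES and at 54.7, 58.6 and 55.0 and 33.5, 37.8 and 43.1 in EBd2 (difference 3.26 ± 0.41, adjusted p = 4.8e-06). The others were Arap3 (3.12 ± 0.40), Gramd3 (3.01 ± 0.38) and Dtna (2.92 ± 0.42), besides Porcn and Spry4.

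In the other direction, Fst, follistatin, which binds activins, led the genes named by size (ENSMUSG00000021765, chromosome 13, 114452290 to 114458951, - strand). It went from 21.5, 31.7 and 35.4 to 85.6, 83.0 and 103 with IAA and from 10.9, 14.8 and 14.9 to 327, 363 and 349.5 with Dox. Every EBd2 library with IAA was below every one with Dox, while the mES libraries with IAA were above those with Dox. The change was 1.61 ± 0.18 with IAA (adjusted p = 1.76e-06) and 4.59 ± 0.14 with Dox, with a difference of -2.99 ± 0.24 (adjusted p = 9.35e-09). Hmcn2, a hemicentin of the extracellular matrix, reached 34.4, 20.7 and 19.9 with IAA and 130.0, 122 and 126 with Dox in EBd2, from 10.7, 7.93 and 12 and 14.5, 6.08 and 8.36 in mES (difference -2.47 ± 0.39, adjusted p = 7.25e-05). Ccdc187 (-2.56 ± 0.51) and the leukotriene receptor gene Ltb4r2 (-2.51 ± 0.69) also rose less with IAA, the second difference being lost by edgeR, DESeq2 and a constant of 0.5. The rise of Ccdc187 with IAA was itself lost by DESeq2 and without EBd2 IAA 3. Tmem132d and the muscarinic receptor gene Chrm1 fell with IAA, from 72.3, 71.3 and 72.3 to 9.71, 8.12 and 9.28 and from 71.3, 59.9 and 77.5 to 11.5, 5.41 and 7.29. With Dox they were low at both stages, Tmem132d at 15.4, 10.4 and 13.0 and 5.03, 12.3 and 15.8 and Chrm1 at 7.25, 20.8 and 14.9 and 13.4, 11.3 and 3.59 (differences -2.54 ± 0.43 and -2.41 ± 0.55).

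**Figure D5:**
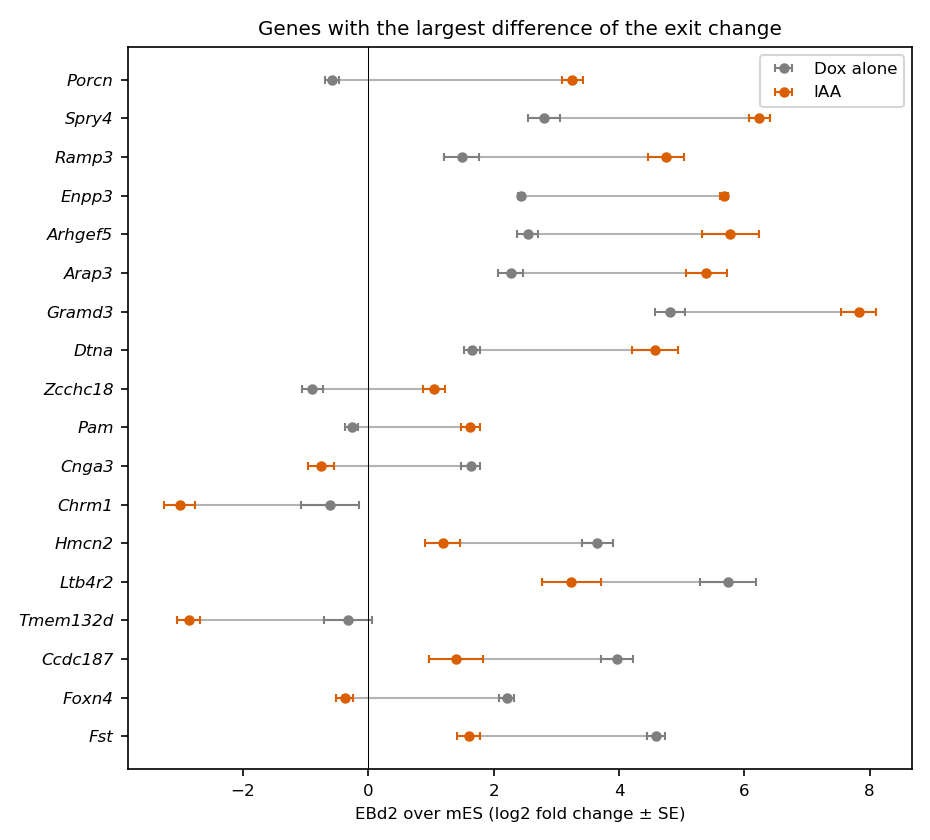
Log2 fold change of EBd2 over mES ± SE (n = 3 libraries per stage), with Dox alone in grey and IAA in orange. Genes are those named by the size of a called difference and those named for calls in opposite directions. All had at least 5 CPM in the highest group, which leaves out genes such as Nkx1-2. Lines join the values of a gene. Porcn is at 3.26 with IAA and -0.57 with Dox, and Fst at 1.61 and 4.59.

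A few genes were called in opposite directions, 240 of the 12176 called in both. By size of the difference the 5 leading ones with at least 5 CPM in the highest group were Porcn, Foxn4, Cnga3, Zcchc18 and Pam. Foxn4, a forkhead factor of retina and spinal cord, was at 64.5, 72.2 and 72.3 and 58.3, 48.7 and 53.7 with IAA (-0.37 ± 0.13; adjusted p = 0.0202) and rose from 50.7, 53.9 and 49.3 to 205, 259 and 261 with Dox (2.21 ± 0.12). Its fall with IAA was lost by DESeq2, in the fit of all 24 libraries and without EBd2 IAA 2, mES IAA 2 or mES IAA 3, while its difference was -2.58 ± 0.17 (adjusted p = 6.08e-10). Cnga3, a cone channel subunit, fell from 46.9, 52.8 and 55.7 to 22.1, 40.6 and 30.5 with IAA (-0.76 ± 0.20) and rose from 45.3, 42.6 and 42.7 to 164, 144 and 109.8 with Dox (1.64 ± 0.15; difference -2.39 ± 0.26). Pam, which amidates peptide hormones, rose from 33.2, 50.2 and 47.4 to 139, 129 and 138 with IAA (1.63 ± 0.15) and fell from 118, 126 and 115 to 96.4, 93.6 and 109 with Dox (-0.26 ± 0.10; difference 1.89 ± 0.19). Zcchc18 rose with IAA (1.04 ± 0.18) and fell with Dox (-0.90 ± 0.17; difference 1.94 ± 0.24, adjusted p = 5.21e-06).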

How the data were processed

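Total RNA was sequenced from mES cells and embryoid bodies. Per the submitters' processing notes, STAR 2.5.3a, featureCounts 1.5.2 and DESeq2 were used with mm10. The annotation, strandedness and roles of these tools are not given in the sources used here. The deposited signal values are read counts divided by 1 size factor per library: 100% of 559637 positive values came out whole (tolerance 1e-06), which recovered the reads. The authors' deposited log2 fold changes, Wald statistics (a score) and p-values compare IAA with Dox within a stage and were not used. The deposited mean of each gene equalled its mean over the 24 libraries (largest gap 5.8e-11), so values were compared across the tables.

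Values plus 1 were log2-transformed and fitted with limma 3.58.1 (R 4.3.3, trend), keeping genes whose mean over the libraries fitted was 1 or more, with Benjamini-Hochberg adjustment over all of them. Exit was fitted on 6 libraries for each treatment and the difference on 12. Alternatives were a constant of 0.5, no filter, a mean of at least 10, TMM scaling, edgeR 4.0.16 (quasi-likelihood) and DESeq2 1.42.0 on recovered reads, all 24 libraries, leaving out each library, and the replicate block. Counting intervals (95%) and floors (3 reads per library) cover counting error only.

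Genes named by rule were the 10 largest changes each way with IAA, the 8 largest differences each way and the 5 largest among genes called in opposite directions. These had at least 5 CPM in the higher or highest group, and Gm and Rik genes, pseudogenes and genes without a symbol were skipped. Also named were up to 3 members a list by the exit and 2 by the difference, Brd2, and members of the pluripotency and epiblast lists. Other list members were named after their values were seen, and 1 list member is not reported here. The members and the 22 lists were chosen with earlier results of these data known. Of 35742 genes, 14339 had no symbol and 35652 matched GENCODE M21. Python 3.11.15, pandas 2.3.3 and scipy 1.17.1 were also used.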

Additional observations from a re-analysis of the deposited data

Results flagged for a closer look

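The 54 genes listed here were those chosen for their difference, by size or within a list, whose change from mES to EBd2 differed between the treatments by the interaction test (limma over 12 libraries, adjusted p below 0.05). Of all genes tested, 20.0% passed it, among them other genes described above. The values are the log2 change with IAA minus that with Dox, and no explanation of them was tested.

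Among genes chosen by size, the difference was 3.83 for Porcn, 3.43 for Spry4, 3.26 for Ramp3, 3.23 for Enpp3, 3.23 for Arhgef5, 3.12 for Arap3, 3.01 for Gramd3 and 2.92 for Dtna. It was -2.99 for Fst, -2.58 for Foxn4, -2.56 for Ccdc187, -2.54 for Tmem132d, -2.51 for Ltb4r2, -2.47 for Hmcn2, -2.41 for Chrm1 and -2.39 for Cnga3. Zcchc18 (1.94) and Pam (1.89) moved in opposite directions.

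In the pluripotency and epiblast lists it was -1.21 for Esrrb, -1.48 for Fbxo15, 1.23 for Lin28a, 1.06 for Utf1, 2.13 for Dnmt3b and 1.49 for Dnmt3a. In the signalling lists it was -0.64 for Socs3, -0.94 for Stat3, 1.40 for Etv4, -1.22 for Axin2, 1.92 for Lefty1 and -1.27 for Gdf3. Lineage genes gave -3.42 for Nkx1-2, 1.01 for Tubb3, 0.52 for Nes, 0.79 for Col4a1, 1.06 for Krt18, 1.09 for Krt8, -1.98 for Dcn and -2.03 for Col3a1. The calls of the last 2 were lost by edgeR and DESeq2, and that of Col3a1 rested on 14 reads in EBd2 with Dox.

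Germline and 2-cell genes gave -0.86 for Zcwpw1, -1.48 for Dazl and -1.0 for Zscan4d. Metabolic, stress and p53 genes gave 0.94 for Pdk1, 0.60 for Pgk1, -1.61 for Ddit4, 0.58 for Psat1, -0.64 for Zmat3 and -0.47 for Ckap2. The remaining lists gave 1.45 for Epcam, 1.07 for Vim, -0.91 for Aff1, 0.61 for Ell2, -0.22 for Brd2, 0.60 for Tiparp and -1.47 for Aldh3a1.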

How the results depend on the processing

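Among list members and named genes, no called change with IAA and no called difference reversed under the alternatives run. Values that were not called were not checked for direction. The median difference over all genes went from -0.008 to 0.039 with TMM scaling. The number of genes that changed at least 2-fold with Dox and were called the same way with IAA was 3952 of 4444 (88.9%) among genes with a mean of at least 10, against 6137 of 7559, because fewer genes were tested. In that setting 2432 genes rose and 2028 fell at least 2-fold with IAA (4340 and 3290 in the main analysis), and 2360 rose with Dox (4467). Differences of at least 2-fold downward numbered 257 by DESeq2 and 311 with all 24 libraries in the fit, against 488. Leaving out 1 library at a time gave 13967 to 14211 calls with IAA, 13767 to 14524 with Dox, 3723 to 5072 for the difference and 5833 to 6118 for the genes kept; the highest count for the difference came without EBd2 Dox 3. Of the list members and named genes, 13 lost their call with IAA and 29 that of the difference with all 24 libraries in the fit. The main fit did not pair samples by replicate number. Same-numbered libraries had small correlations of their deviations, 0.00495 to 0.0330 with IAA and 0.00242 to 0.0314 with Dox. Libraries of other numbers had -0.0315 to 0.00371 with IAA, all below the same-numbered ones, and -0.0237 to 0.0160 with Dox, which overlapped them. With the replicate block, 14940 genes were called with IAA, 14913 with Dox and 4342 for the difference, and 6171 genes were kept. Depth limits genes of a few reads, for which a missing call says little.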

Other observations

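Gene families outside the lists were counted after the data had been seen. Of 82 cytosolic ribosomal protein genes, which code for the protein part of the ribosome, 76 fell and 1 rose with IAA, with a median log2 change of -0.51, and 74 fell and 1 rose with Dox. Of 92 oxidative phosphorylation genes 62 fell and 11 rose with IAA, and of 93 with Dox 70 fell and 11 rose. The difference was called upward for 13 and downward for 3 of these genes, or for 20 and 1 with TMM scaling, against 11.0% and 9.02% of all genes without it, so the first count is near the share over all genes. Of 34 aminoacyl-tRNA synthetase genes 18 fell and 10 rose with IAA and 20 fell and 7 rose with Dox, and 11 differences were upward and 0 downward. Of 36 collagen genes 24 rose and 7 fell with IAA, and of 40 with Dox 28 rose and 7 fell. Of 34 Hox genes 15 rose and 15 fell with IAA. Over all genes, 36.3% rose and 32.4% fell with IAA.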
